A study of Mus musculus with 10 samples.

Results

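The genes described here are 64 splicing factors measured in primary microglia from mice, the macrophages that reside in brain tissue: the SR proteins, the hnRNPs, the proteins of the small nuclear ribonucleoproteins (snRNPs), the SF3A and SF3B complexes and the PRPF proteins. They were chosen by symbol, as every protein-coding gene of the deposited table whose name starts with Srsf and a number, Hnrnp, Snrp, Sf3a, Sf3b or Prpf, leaving out 4 pseudogene or noncoding entries, and they are 64 of 28247 genes. RNA was sequenced from wild-type cells that had all been exposed to amyloid-β oligomers, the aggregates of the Alzheimer's disease peptide, before transfection. The 5 libraries of one group came from cells given a mimic of the microRNA miR-378a-3p, and the 5 of the other from cells given a negative control mimic. Libraries of cells without the oligomers or without transfection were not analysed here, and the comparison asks how the microRNA alters gene expression in amyloid-treated microglia.

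The labels do not say whether replicate libraries represent separate cultures or animals, and the p-values therefore reflect only the spread between libraries, which may be technical. Each library held 48707985 to 65069571 counts. About 4 counts per read pair were assumed, because low counts piled up at 4. A count of 4 was held by 933.5 genes per library on average, against 485.6 with 3 and 305.8 with 5. Summed FPKM (fragments per kilobase of transcript, scaled to the library) of 11 microglia and macrophage markers was 1253 to 1303 with the miR-378a-3p mimic and 1545 to 1649 with the control mimic, with Csf1r, Itgam, Cd68 and Tyrobp abundant in both groups and C1qa and Aif1 under 3 FPKM on average. By edgeR, 10 of these 11 markers fell with the mimic and 1, Cd68, rose. The part of this difference in the results below was not tested, and in bulk RNA fewer cells of a type and less RNA per cell cannot be told apart. Epithelial marker RNA, mainly Krt8 and Krt18, summed to 60.8 FPKM in miR-378a-3p mimic replicate 1 and 0 FPKM in the other mimic libraries, against at most 0.0306 FPKM in any control mimic library; leaving replicate 1 out left 33 splicing factors higher and 15 lower, close to the counts with it. Summed markers of neurons, fibroblasts, endothelium, oligodendrocytes and lymphocytes stayed under 1 FPKM in every library, and of the astrocyte markers only Aldoc was above 1 FPKM.

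Splicing removes introns from a transcript in a particle assembled from snRNPs, each a small RNA held in a ring of Sm proteins with proteins of its own. SF3A and SF3B belong to the U2 particle that marks the branch point, and most PRPF proteins, named after yeast precursor RNA processing factors, build or remodel the U4/U6 and U5 particles. SR proteins bind exons through RNA recognition motifs, recruit the spliceosome through arginine- and serine-rich tails, and usually favour inclusion of the exon. The hnRNPs coat nascent RNA and often have the opposite effect on nearby splice sites. Many SR and hnRNP genes control their own level by splicing in a segment that sends the transcript to nonsense-mediated decay (NMD).

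The splicing factors were abundant and moved by small amounts in both directions. Of the 63 with enough counts to be tested, 32 rose and 15 fell with the miR-378a-3p mimic at an edgeR adjusted p under 0.05, while 16 were not called. Among all 15916 genes tested, 31.7% rose and 31.5% fell, so the share of splicing factors that rose was above the background, at 50.8%, and the share that fell was below it, at 23.8%. Protein-coding genes with a mean of at least 3 FPKM, which are measured more precisely, give a closer background of 41.5% higher and 36.2% lower. The exception was Snrpn, a neuronal relative of Snrpb, which had 0.300 FPKM in miR-378a-3p mimic replicate 1, the library with keratin RNA, and was listed at 0 in every other library.

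No called splicing factor moved 2-fold, whereas 2111 called genes among all 15916 tested did. Among the 8323 protein-coding genes with a mean of at least 3 FPKM, 500 called genes did. The median size of a called change on the log2 scale was 0.31 among the splicing factors. It was 0.49 among all genes and 0.37 among those protein-coding genes. The median log2 fold change of the splicing factors, mimic over control, was 0.09, against 0.00 over all genes and 0.04 over those protein-coding genes. All 5 mimic libraries lay above all 5 control libraries for 29 splicing factors, with 25.7% of all tested genes doing so. They lay below for 14, against a background of 25.2%. In either direction 43 of 63 did not overlap, against 50.9% of all tested genes. Of the 8323 protein-coding genes with a mean of at least 3 FPKM, 2946 were above, 2539 below and 2838 overlapped. The share without overlap in this closer background was thus near that of the splicing factors. The middle splicing factor had a mean of 23.7 FPKM over the 10 libraries, against 4.42 FPKM for the middle tested gene. Together they made up 0.881% to 0.917% of summed FPKM with the mimic and 0.746% to 0.787% with the control mimic, and these ranges did not overlap.

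How the libraries are scaled moves the balance of small changes. With library totals in place of TMM scaling, edgeR called 38 splicing factors higher and 10 lower, so 79.2% of the called members were higher, against 68.1% with TMM, while 37.3% of all tested genes were then higher and 26.5% lower. With limma on log2(FPKM + 1), 40 were higher and 10 lower, or 80.0% of those called, and 46.2% of all tested genes were higher and 28.2% lower. These settings moved the median log2 fold change of all genes to 0.08 and 0.09, and a pseudocount of 0.1 moved it to 0.11. The members whose call changed had small differences, and each of them is named below.

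**Figure D1:**
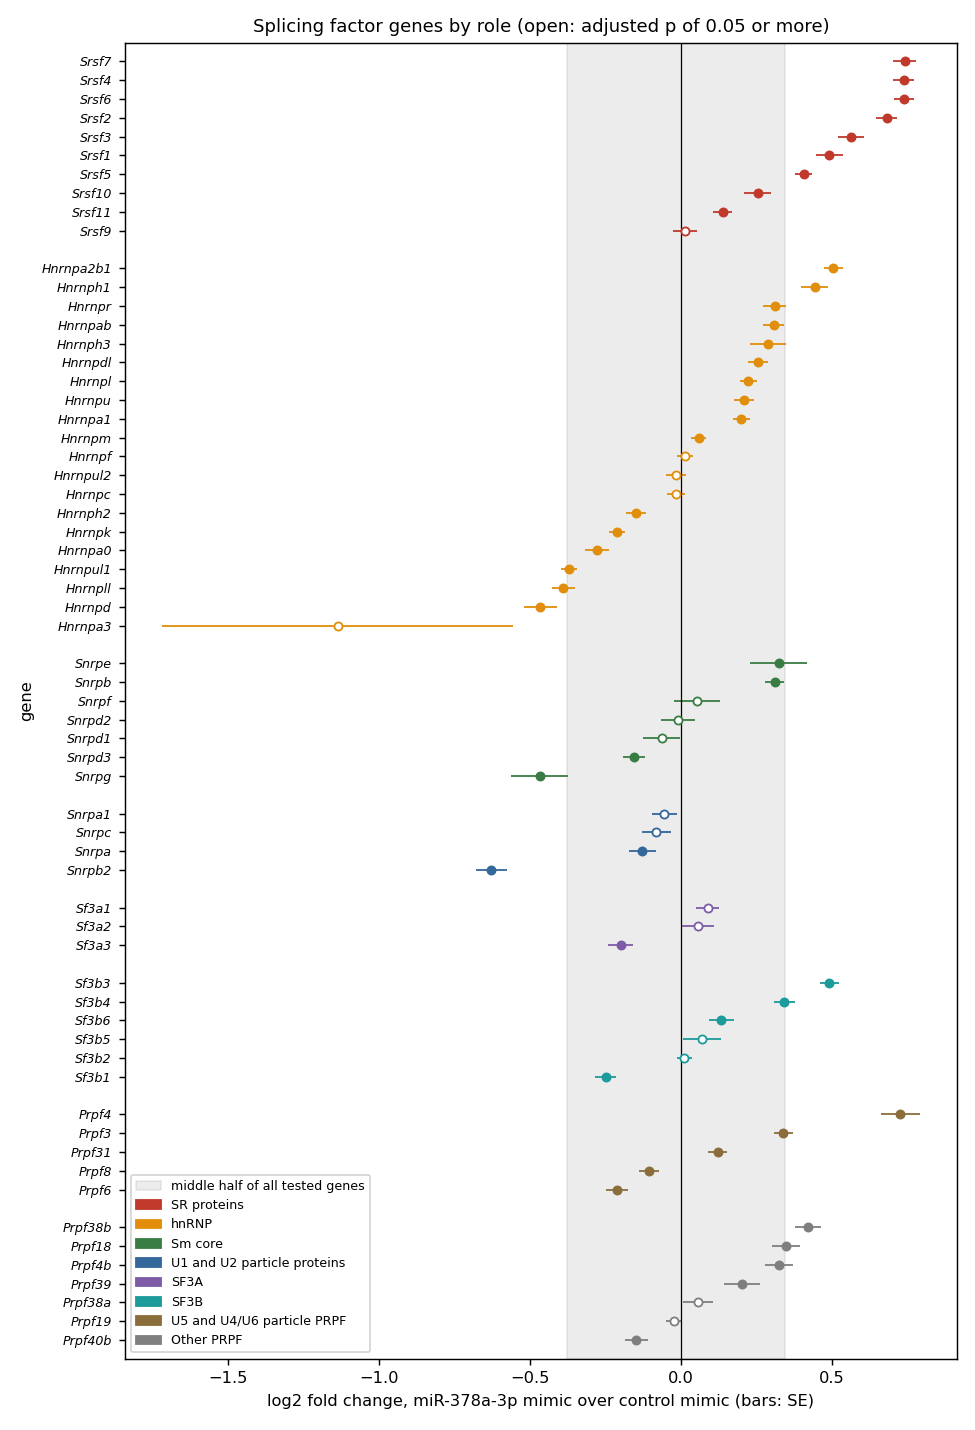
Log2 fold change, miR-378a-3p mimic over control mimic, of the tested splicing factors reported here, grouped by role, with bars of 1 standard error from edgeR. Filled points were called at an adjusted p under 0.05, and the grey band holds the middle 50% of all tested genes. The SR proteins fill the right side, with Srsf4, Srsf6 and Srsf7 at 0.74. The U1 and U2 particle proteins all lie left of 0, and each remaining group holds points on both sides of 0.

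The SR proteins moved most uniformly: 9 of 10 measured members rose with the miR-378a-3p mimic, with a median log2 fold change of 0.53, and 0 fell. In each of those 9 genes every mimic library was above every control library. Srsf7, which also takes part in RNA export, had 152, 154, 151, 148 and 156 CPM (counts scaled to the TMM-adjusted library size) with the mimic, against 89.9, 83.9, 88.8, 95.4 and 97.4 CPM with the control mimic. Its log2 fold change was 0.74 (SE 0.0386, edgeR adjusted p = 2.35e-10), and no library came near the other group.

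Srsf4 and Srsf6, close relatives with long arginine- and serine-rich tails, rose by the same proportion at very different levels. Srsf4 had 57.4, 59.5, 57.9, 59.3 and 58.4 CPM with the mimic, against 34.8, 35.2, 35.3, 35.3 and 34.8 CPM with the control mimic (log2 fold change 0.74, SE 0.0341, edgeR adjusted p = 5.89e-11). Srsf6 had 375, 384, 385, 378 and 399 CPM with the mimic, against 242, 223, 219, 226 and 242 CPM with the control mimic (log2 fold change 0.74, SE 0.0334, edgeR adjusted p = 4.82e-11). In both genes the lowest mimic library was far above the highest control library.

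Srsf2, a regulator of exon choice that is mutated in human myeloid neoplasms, averaged 405 ± 10.3 CPM with the mimic and 252 ± 12.5 CPM with the control mimic (SD, n = 5 each), a log2 fold change of 0.68 (edgeR adjusted p = 1.93e-10, SE 0.0350). Srsf5, the SR gene with the highest count, had 562, 537, 523, 539 and 531 CPM with the mimic, against 401, 404, 403, 416 and 407 CPM with the control mimic, and its log2 fold change was 0.41 (SE 0.0269, edgeR adjusted p = 3.48e-09). Srsf3, the smallest family member, rose by 0.56 on the log2 scale (SE 0.0418, edgeR adjusted p = 1.30e-08), and Srsf1, the founding member, by 0.49 (SE 0.0442, edgeR adjusted p = 1.15e-07). Srsf10 rose by 0.25 and Srsf11 by 0.14 (SE 0.0442 and 0.0309, edgeR adjusted p = 0.000119 and 0.00112), the smallest called changes of the family.

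Srsf9 stood apart. It is the closest relative of Srsf1, and it had 55.9, 56.4, 55.1, 51.1 and 53.8 CPM with the mimic, against 54.2, 54.9, 56.0, 51.9 and 52.3 CPM with the control mimic. Its groups overlapped fully, with a log2 fold change of 0.01 (edgeR adjusted p = 0.760, SE 0.0393). With limma on log2(FPKM + 1) it was called higher too, which made 10 of 10, and edgeR with library totals called 9 of 10. Without miR-378a-3p mimic replicate 1, the library with keratin RNA, 9 of 10 were higher.

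**Figure D2:**
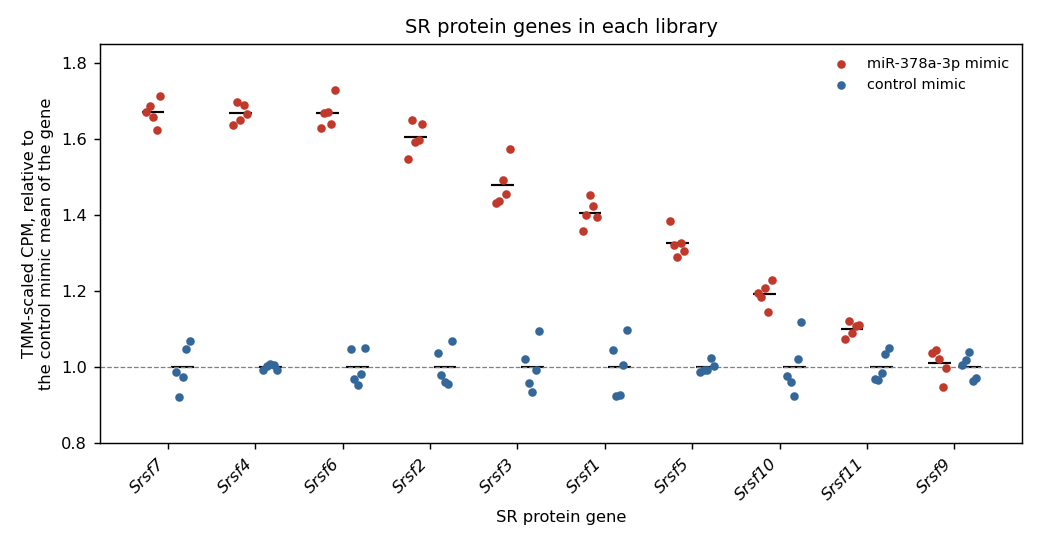
TMM-scaled CPM of the 10 SR genes in each library, divided by the control mimic mean of the gene, with miR-378a-3p mimic libraries left and control mimic libraries right of each tick, a black line at each group mean and an axis that does not start at 0. Mimic means run between 1.67 in Srsf7 and 1.01 in Srsf9, and the groups are separate in every gene but Srsf9.

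In level per length, Srsf2 was the most abundant SR transcript with the mimic, at 129 ± 3.02 FPKM, against 75.7 ± 4.44 FPKM with the control mimic, and Srsf5 followed with 127 ± 3.81 against 90.3 ± 1.71 FPKM (SD, n = 5 each). With the control mimic Srsf5 was the higher of this pair. Srsf4 was the scarcest, with 15.5 ± 0.237 FPKM in the mimic group and 8.73 ± 0.0546 FPKM in the control group. SR transcripts made up 20.5% to 21.1% of the summed FPKM of the 64 splicing factors with the mimic, against 16.0% to 17.1% with the control mimic. On counts in place of FPKM, the mean shares were 19.3% with the mimic and 15.2% with the control mimic.

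The promoters of the 3 SR genes with the greatest rises and of Srsf9 are shown because genes that moved together may be read side by side with the 1 that did not. They are from RefSeq (GRCm38.p6), from 250 bases before to 50 after the annotated start, at chr17:80207256-80207555 for Srsf7 (minus strand), chr4:131873387-131873686 for Srsf4, chr2:162931258-162931557 for Srsf6 and chr5:115326927-115327226 for Srsf9 (plus strand). Capitals mark matches on either strand to the GC box (GGGCGG, or CCGCCC on the other strand) and to the ETS motif (CCGGAAG, or CTTCCGG). No other motif searched had a match in these promoters.
Srsf7: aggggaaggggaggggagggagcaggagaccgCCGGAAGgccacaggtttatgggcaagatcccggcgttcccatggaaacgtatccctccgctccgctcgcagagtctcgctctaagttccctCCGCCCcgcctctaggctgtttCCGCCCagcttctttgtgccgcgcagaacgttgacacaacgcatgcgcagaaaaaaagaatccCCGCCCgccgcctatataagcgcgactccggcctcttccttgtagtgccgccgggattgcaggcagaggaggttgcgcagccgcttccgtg
Srsf4: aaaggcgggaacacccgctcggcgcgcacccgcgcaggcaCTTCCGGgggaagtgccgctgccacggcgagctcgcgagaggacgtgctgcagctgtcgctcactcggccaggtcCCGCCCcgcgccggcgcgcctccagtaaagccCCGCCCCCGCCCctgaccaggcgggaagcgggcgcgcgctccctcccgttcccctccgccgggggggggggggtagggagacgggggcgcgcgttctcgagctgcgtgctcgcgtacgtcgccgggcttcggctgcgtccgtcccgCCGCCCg
Srsf6: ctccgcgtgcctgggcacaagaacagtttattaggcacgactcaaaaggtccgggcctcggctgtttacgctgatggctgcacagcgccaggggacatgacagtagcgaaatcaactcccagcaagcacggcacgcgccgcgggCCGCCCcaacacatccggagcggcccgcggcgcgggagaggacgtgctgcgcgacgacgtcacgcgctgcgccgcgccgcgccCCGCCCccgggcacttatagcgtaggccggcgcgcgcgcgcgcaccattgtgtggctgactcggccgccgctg
Srsf9: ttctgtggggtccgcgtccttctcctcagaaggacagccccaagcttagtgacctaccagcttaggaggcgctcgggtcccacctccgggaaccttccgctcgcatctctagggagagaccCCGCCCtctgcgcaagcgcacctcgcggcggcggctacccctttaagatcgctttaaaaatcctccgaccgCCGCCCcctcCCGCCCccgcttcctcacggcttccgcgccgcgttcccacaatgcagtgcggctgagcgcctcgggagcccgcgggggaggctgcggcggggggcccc

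The GC box was present in 9 of the 10 SR promoters, Srsf9 included, and in 46.3% of 17491 protein-coding promoters of the same length. It was also in 13 of 18 hnRNP promoters and in 66.1% of all 56 splicing factor promoters. The ETS motif was in 4 of 10 SR promoters, in 33.9% of the 56 splicing factor promoters matched by symbol and in 11.9% of all. In the hnRNPs it was in 2 of 18 promoters, near the share of all. By call, it was in 8 of 28 splicing factors that rose, 5 of 14 that fell and 6 of 13 not called. The other motifs were the CCAAT box (CCAAT), in 4 SR promoters and 39.0% of all, and the TATA box (TATAAA), in 2 SR promoters and 13.3% of all. The E-box (CACGTG) and the cAMP response element (TGACGTCA) were in 0 SR promoters, and in 7.90% and 2.34% of all promoters. The promoters of splicing factors that rose held the GC box in 20 of 28 cases and those that fell in 10 of 14, the same 71.4%, so it did not set the directions apart. A match is a description of the letters only.

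The hnRNPs split by member: 10 of 20 rose, 6 fell and 4 were not called, with a median log2 fold change of 0.04. These shares, 50% and 30%, were not far from the closer background of 41.5% and 36.2%, which also had a median of 0.04. A split of this kind is thus not particular to the hnRNPs. Hnrnpab, a shuttling RNA-binding protein, was the most abundant splicing factor per length, at 245 FPKM with the mimic and 186 FPKM with the control mimic, and it had 710.3, 742, 757, 662 and 735 CPM with the mimic, against 606, 572, 582, 565 and 589.8 CPM with the control mimic (log2 fold change 0.31, SE 0.0361, edgeR adjusted p = 2.29e-06). Hnrnpa2b1, which packages and transports RNA, had 1145, 1174, 1188, 1163 and 1122 CPM with the mimic, against 826, 796, 776, 835 and 848 CPM with the control mimic (log2 fold change 0.50, SE 0.0304, edgeR adjusted p = 1.21e-09), the greatest rise of the family. In both genes all mimic libraries were above all control libraries.

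Hnrnph1, which binds runs of guanine, had 395, 430.0, 432, 398 and 412 CPM with the mimic, against 301, 276, 292, 325 and 327 CPM with the control mimic, and rose by 0.44 on the log2 scale (SE 0.0455, edgeR adjusted p = 5.01e-07). Hnrnpa1, the classical antagonist of Srsf1 in splice site choice, averaged 576 ± 19.0 CPM with the mimic and 501 ± 8.77 CPM with the control mimic (SD, n = 5 each; log2 fold change 0.20, SE 0.0287, edgeR adjusted p = 1.76e-05). The other called rises were those of Hnrnpr (0.31), Hnrnph3 (0.29), Hnrnpdl (0.26), Hnrnpl (0.22), Hnrnpu (0.21) and Hnrnpm (0.06) on the log2 scale. The call of Hnrnpm was marginal (SE 0.0251, edgeR adjusted p = 0.0497), and it was lost in 9 of 10 refits that each left out a library.

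Hnrnpd, also called AUF1, which binds AU-rich elements and promotes decay of inflammatory transcripts, fell the most of the called hnRNPs. It had 65.9, 65.5, 66.9, 54.3 and 60.6 CPM with the mimic, against 85.4, 84.8, 81.4, 88.8 and 92.0 CPM with the control mimic (log2 fold change -0.46, SE 0.0544, edgeR adjusted p = 2.16e-06). Hnrnpll, known in lymphocytes for directing the splicing of Ptprc (CD45), had 97.3, 94.9, 108, 94.4 and 99.98 CPM with the mimic, against 128, 127, 131, 134 and 126 CPM with the control mimic (log2 fold change -0.39, SE 0.0375, edgeR adjusted p = 2.53e-07). Neither gene had overlapping groups.

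Hnrnpul1, a relative of Hnrnpu with a role in DNA repair, fell to 165 ± 2.15 CPM with the mimic, against 214 ± 5.52 CPM with the control mimic (SD, n = 5 each; log2 fold change -0.37, SE 0.0269, edgeR adjusted p = 1.03e-08). The abundant Hnrnpk, a poly(C)-binding protein, fell by 0.21 on the log2 scale, Hnrnpa0 by 0.28 and Hnrnph2 by 0.15 (edgeR adjusted p = 4.86e-06, 1.65e-05 and 0.00114). With library totals or limma on FPKM, Hnrnph2 was no longer called. Hnrnpc, Hnrnpf and Hnrnpul2 had log2 fold changes of -0.02, 0.01 and -0.01 with overlapping groups, and Hnrnpf was called higher under the same 2 settings.

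Hnrnpa3, a relative of Hnrnpa2b1, was scattered within both groups. It had 17.9, 25.4, 28.5, 79.4 and 84.2 CPM with the mimic, against 202, 211, 32.7, 28.8 and 42.2 CPM with the control mimic, so the groups overlapped and 2 control libraries were several times above the other 3. Its log2 fold change of -1.14 had a standard error of 0.581 and was not called (edgeR adjusted p = 0.102). It was called lower without control mimic replicate 4 and in no other refit. Its counts, and those of other members with processed copies in the genome, are uncertain where reads fit more than 1 copy.

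The Sm ring proteins, which form a single complex around the snRNA, did not move as a unit: of 7 tested, 2 rose, 2 fell and 3 were not called. These shares, 28.6% higher and 28.6% lower, compare with 41.5% and 36.2% in the closer background. Snrpb, which encodes the ring protein SmB, had 262, 259.8, 263, 248 and 265 CPM with the mimic, against 219, 201, 216, 203 and 209 CPM with the control mimic (log2 fold change 0.31, SE 0.0314, edgeR adjusted p = 4.14e-07). Snrpg, for SmG, had 15.0, 16.9, 16.9, 12.4 and 13.3 CPM with the mimic, against 19.5, 20.7, 23.5, 20.8 and 18.4 CPM with the control mimic (log2 fold change -0.47, SE 0.0940, edgeR adjusted p = 0.000450). Both of these changes separated the groups in all libraries.

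Snrpe, for SmE, rose by 0.32 (SE 0.0954, edgeR adjusted p = 0.00796), although its groups overlapped, at 19.9 to 24.2 CPM with the mimic and 13.5 to 20.7 CPM with the control mimic. Snrpd3 fell by 0.15 on the log2 scale (SE 0.0368, edgeR adjusted p = 0.00176), a call lost with library totals and with limma on FPKM. Snrpd1, Snrpd2 and Snrpf had overlapping groups, with log2 fold changes of -0.06, -0.01 and 0.05.

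Of the 4 proteins particular to the U1 and U2 particles, 2 fell and 0 rose, against 36.2% lower and 41.5% higher in the closer background. Snrpb2, the U2 protein B″, had the greatest fall of any called splicing factor, with 57.0, 64.2, 53.1, 57.3 and 60.7 CPM with the mimic, against 88.6, 95.4, 83.0, 90.4 and 93.9 CPM with the control mimic (log2 fold change -0.63, SE 0.0511, edgeR adjusted p = 3.80e-08). The highest mimic library was well below the lowest control library. Snrpa1, the U2 protein A′ that binds B″, had overlapping groups, at 81.2 ± 4.57 CPM with the mimic and 84.3 ± 2.09 CPM with the control mimic (SD, n = 5 each; edgeR adjusted p = 0.253).

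Snrpa, the U1 protein A, fell by 0.13 on the log2 scale (SE 0.0444, edgeR adjusted p = 0.0204), with overlapping groups, and was not called with library totals, with limma on FPKM or without miR-378a-3p mimic replicate 5. Snrpc, the U1 protein C, had a log2 fold change of -0.08 (edgeR adjusted p = 0.152) and was called lower only without control mimic replicate 4. In summed FPKM the 4 genes made up 2.80% to 2.96% of the splicing factors with the mimic and 3.67% to 3.93% with the control mimic, with no overlap. Their mean sum was 77.4 FPKM with the mimic and 86.2 FPKM with the control mimic, and Snrpb2 alone had 19.3 against 28.0 FPKM. Snrpa had 28.3 against 29.1, Snrpa1 24.1 against 23.6 and Snrpc 5.60 against 5.56 FPKM. The share also reflects the larger sum of all splicing factors, 2710 FPKM with the mimic against 2262 FPKM.

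**Figure D3:**
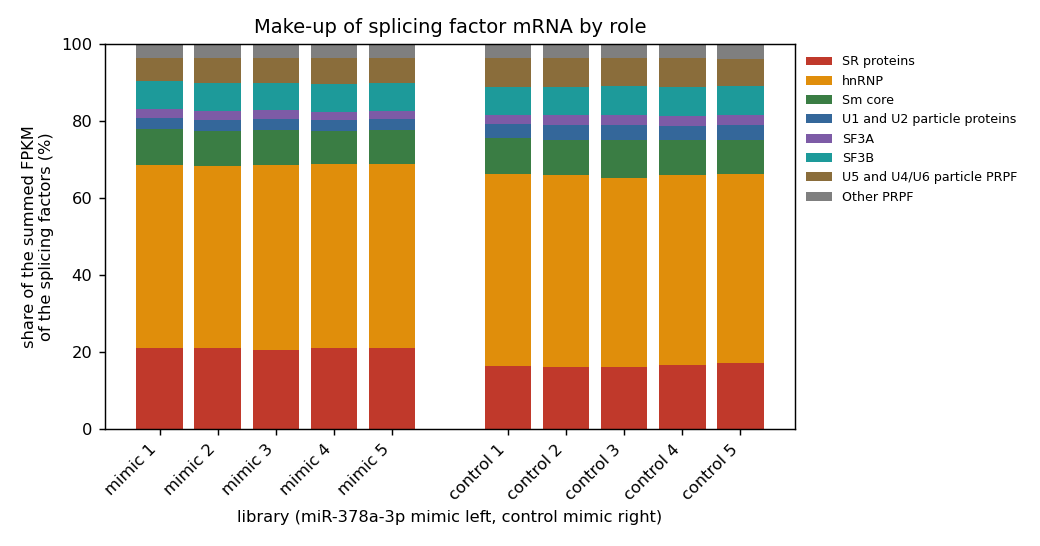
Share of the summed FPKM of the 64 splicing factors held by each role in each library, in percent, miR-378a-3p mimic left and control mimic right. The SR share was 20.5% to 21.1% with the mimic, above the control range of 16.0% to 17.1%, and the hnRNP share was 47.4% to 48.2%, below 49.2% to 50.0%. The summed hnRNP FPKM itself was higher with the mimic, at 1276 to 1323 against 1084 to 1149 with the control mimic.

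Within the U2-associated SF3B complex 3 of 6 genes rose (50%) and 1 fell (16.7%), against 41.5% and 36.2% in the closer background. Sf3b3, the large scaffold subunit, had 316, 324, 335, 339 and 338 CPM with the mimic, against 242, 235, 234, 223 and 239.5 CPM with the control mimic (log2 fold change 0.49, SE 0.0310, edgeR adjusted p = 1.99e-09). Its partner in the same ring, Sf3b1, which contacts the branch point and is a target of splicing inhibitors, moved the other way: it had 438, 454, 454, 481 and 474 CPM with the mimic, against 540.0, 559, 518, 573 and 546 CPM with the control mimic (log2 fold change -0.25, SE 0.0340, edgeR adjusted p = 1.08e-05). Neither gene had overlapping groups.

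Sf3b4, which contacts RNA upstream of the branch point, rose by 0.34 on the log2 scale (SE 0.0352, edgeR adjusted p = 5.09e-07), with 63.8 ± 1.57 FPKM with the mimic and 47.2 ± 2.35 FPKM with the control mimic (SD, n = 5 each). Sf3b6, the branch-point binding p14 subunit, rose by 0.13 (SE 0.0413, edgeR adjusted p = 0.0103) with overlapping groups, and lost its call without control mimic replicate 1 or 3. Sf3b2 and Sf3b5 were not called, at 0.01 and 0.07, but were called higher with library totals and with limma on FPKM. In SF3A, Sf3a3 fell by 0.20 (SE 0.0406, edgeR adjusted p = 0.000509) with separate groups. Sf3a1 and Sf3a2 had log2 fold changes of 0.09 and 0.06 (edgeR adjusted p = 0.0584 and 0.355), and both were called higher under the same 2 settings.

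All 5 PRPF proteins of the U4/U6 and U5 particles were called, 3 higher (60%) and 2 lower (40%). In the closer background 41.5% were higher and 36.2% lower, with only 1860 of 8323 genes not called. Prpf4, which binds Prpf3 in the U4/U6 particle, had 39.3, 44.8, 46.6, 40.8 and 44.4 CPM with the mimic, against 28.8, 26.8, 25.7, 23.4 and 25.7 CPM with the control mimic (log2 fold change 0.73, SE 0.0637, edgeR adjusted p = 8.58e-08). The binding partner Prpf3 had 116, 124, 120.1, 119 and 122 CPM with the mimic, against 93.2, 99.0, 92.6, 92.5 and 96.9 CPM with the control mimic (log2 fold change 0.34, SE 0.0314, edgeR adjusted p = 1.58e-07). Both were higher in every mimic library than in any control library, and so was Prpf31, another U4/U6 protein, with a log2 fold change of 0.12 (edgeR adjusted p = 0.00387, SE 0.0321).

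Prpf6 and Prpf8, the U5 proteins of this list, fell instead, and the list does not hold every U5 protein. Prpf6, which bridges U5 to U4/U6, averaged 127 ± 7.54 CPM with the mimic and 147 ± 2.57 CPM with the control mimic (SD, n = 5 each; log2 fold change -0.21, SE 0.0378, edgeR adjusted p = 0.000156). Prpf8, the protein at the heart of the catalytic centre, fell by 0.11 (SE 0.0334, edgeR adjusted p = 0.0115), at 708 to 802 CPM with the mimic and 820.0 to 849.6 CPM with the control mimic. That call was lost with library totals, where the log2 fold change was -0.03, and with limma on log2(FPKM + 1), where it was -0.02.

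Of the 8 other PRPF genes 5 rose (62.5%) and 1 fell (12.5%), against 41.5% and 36.2% in the closer background. Prpf38b, a relative of a yeast activation factor, had 86.8, 92.3, 96.5, 97.3 and 93.1 CPM with the mimic, against 72.4, 69.4, 67.5, 64.9 and 74.1 CPM with the control mimic (log2 fold change 0.42, SE 0.0429, edgeR adjusted p = 4.69e-07). Prpf18, a factor of the second catalytic step, rose by 0.35, and Prpf4b, a kinase of tri-snRNP proteins, by 0.32 (SE 0.0465 and 0.0453, edgeR adjusted p = 8.92e-06 and 1.36e-05). The groups of these 3 genes were separate.

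Prpf39, a relative of a yeast U1 protein, rose by 0.20 (SE 0.0591, edgeR adjusted p = 0.00725) although control mimic replicate 5, at 87.6 CPM, lay within the mimic range of 85.9 to 90.2 CPM. Prpf40b fell by 0.15 (SE 0.0388, edgeR adjusted p = 0.00385), a call lost with library totals and with limma on FPKM. Prpf19, the ubiquitin ligase at the core of the complex that bears its name, and Prpf38a were not called, at -0.02 and 0.06. Prpf38a was called higher with library totals and limma on FPKM, and Prpf19 with limma on FPKM only, where its sign turned and it reached 0.064.

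A ratio of counts between related members does not depend on how libraries are scaled, but with a pseudocount the scaling does not cancel fully. The log2 ratio of (FPKM + 1) was compared between groups in 17 pairs of paralogs or partners by a two-sided exact permutation test over the libraries, whose smallest possible p is 0.00794. In 13 pairs the groups did not overlap and reached that value, an exact permutation p of 0.0104 after Benjamini-Hochberg adjustment over the 17 pairs. Separate groups always give that value, so the p adds nothing to the separation. The share of gene pairs in general that separate was not computed. Singly, 2946 of 8323 protein-coding genes with a mean of at least 3 FPKM were above and 2539 below in every mimic library. The pairs were chosen with earlier results of these data known. A ratio shows unequal change and not which gene moved.

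The widest shift among pairs with separate groups was in Hnrnpd over Hnrnpdl, with a mean log2 ratio of -1.38 ± 0.0960 with the mimic and -0.71 ± 0.0301 with the control mimic (SD, n = 5 each), a difference of -0.67. This pair lies 54.6 kb apart on chromosome 5 in the authors' coordinates, on the same strand, and its members went in opposite directions. Hnrnph1 over Hnrnph2 shifted by 0.58, from means of 1.02 with the mimic and 0.44 with the control mimic, and Hnrnpl over Hnrnpll by 0.58, from means of 2.57 with the mimic and 1.99 with the control mimic. In each of these 3 pairs 1 relative rose and the other fell.

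Hnrnpu over Hnrnpul1 differed by 0.56, Snrpa over Snrpb2 by 0.48, Srsf1 over Srsf9 by 0.47, and Hnrnph1 over Hnrnpf by 0.42. Negative differences were found for Hnrnpul1 over Hnrnpul2 (-0.34), Prpf38a over Prpf38b (-0.34), Srsf5 over Srsf6 (-0.32), Hnrnpa1 over Hnrnpa2b1 (-0.30) and Srsf3 over Srsf7 (-0.17). The groups overlapped for Srsf4 over Srsf6 (-0.05, adjusted exact permutation p = 0.225), Sf3a1 over Sf3a2 (0.03, p = 0.556), Hnrnpr over Syncrip (0.02, p = 0.531) and Hnrnpa3 over Hnrnpa2b1 (-1.29, p = 0.154). Srsf10 over Srsf12 was not tested, as Srsf12 was not in the table used, nor was Snrpb over Snrpn.

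**Figure D4:**
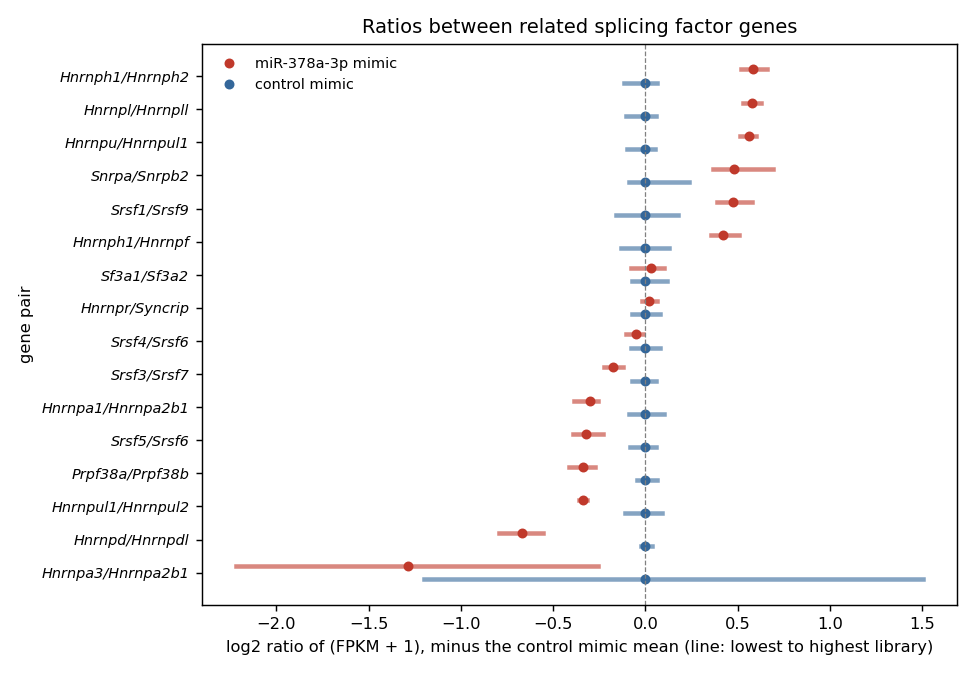
Log2 ratio of (FPKM + 1) between 2 related genes for 16 of the 17 pairs tested, less the control mimic mean, with the miR-378a-3p mimic group above the control mimic group, points at the group means and lines from the lowest to the highest library. Most pairs have separate groups, with Hnrnpd over Hnrnpdl furthest to the left apart from the scattered Hnrnpa3 over Hnrnpa2b1.

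Hnrnpll and Srsf7 are also neighbours, 138 kb apart on chromosome 17 and on the same strand, and they moved in opposite directions, at -0.39 and 0.74 on the log2 scale. The other neighbours within 500 kb moved alike: Prpf3 and Sf3b4 both at 0.34, Srsf10 and Hnrnpr at 0.25 and 0.31, and Hnrnpa0 and Hnrnpk at -0.28 and -0.21.

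Members differed by the kinds of transcript annotated for them. The deposited annotation lists an NMD transcript class for 31 of the 64 splicing factors, of which 23 rose and 6 fell, with a median log2 fold change of 0.26. The 32 tested members without one split evenly, with 9 higher, 9 lower and a median of 0.00. Among all protein-coding genes with an NMD class, 1247 of 3087 tested rose and 1045 fell, with a median of 0.05. Those without one also split nearly evenly, with 3245 of 9109 tested higher, 3168 lower and a median of 0.01. The class was listed for 9 of 10 SR genes, 8 of which rose, and for 10 of 20 hnRNP genes, of which 7 rose and 3 fell. Gene totals do not tell which isoform changed, and the split was chosen after the values were seen.

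Among 103 tested genes of the wider splicing pathway that are not members, 57 rose, 22 fell and 24 were not called. That is 55.3% higher and 21.4% lower. The closer background of protein-coding genes with a mean of at least 3 FPKM had 41.5% higher and 36.2% lower. The most uniform was the assembly of snRNPs, in which the SMN complex loads Sm rings methylated by the PRMT5 complex: 15 of 16 genes rose and 1 fell, with a median log2 fold change of 0.33, and the counts were the same with library totals, with limma on FPKM and without miR-378a-3p mimic replicate 1. Coprs, a partner of PRMT5 on histones, had 9.31, 8.90, 8.80, 9.63 and 8.98 CPM with the mimic, against 3.64, 3.95, 4.41, 3.90 and 3.15 CPM with the control mimic (log2 fold change 1.26, SE 0.0985, edgeR adjusted p = 2.40e-08). Among SMN complex members, Gemin7 rose by 0.68 (SE 0.0698, edgeR adjusted p = 5.43e-07), and Gemin8 was the exception, with a log2 fold change of -0.79 (edgeR adjusted p = 5.62e-06, SE 0.101). Snupn, the import adaptor of assembled snRNPs, rose by 0.60, Smn1 by 0.19 and Prmt5 by 0.20.

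The list of SR kinases and coactivators had 5 of 11 genes higher (45.5%, near the closer background of 41.5%) and 1 lower. The SR-like activators Tra2b and Tra2a rose by 0.56 and 0.25, and Son, a large scaffold of nuclear speckles, by 0.27 (edgeR adjusted p = 1.83e-08, 5.86e-05 and 5.76e-06). Of the kinases that phosphorylate SR proteins, Clk4 fell by 0.25 on the log2 scale, and Clk1, Clk2, Clk3, Srpk1 and Srpk2 were not called, with log2 fold changes between -0.06 and 0.04.

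Other particle proteins rose in 16 of 30 cases (53.3%) and fell in 5 (16.7%). Phf5a, which sits in the SF3B ring, had 60.2, 67.8, 58.7, 60.6 and 61.8 CPM with the mimic, against 39.7, 35.7, 33.8, 30.8 and 30.2 CPM with the control mimic (log2 fold change 0.86, SE 0.0681, edgeR adjusted p = 2.73e-08). In the minor spliceosome, Rnpc3 rose by 0.61 while Snrnp35 fell by 0.80 on the log2 scale (edgeR adjusted p = 8.02e-06 and 4.02e-06). The proteins of the catalytic steps and the Prpf19 complex split, 9 of 21 higher and 8 lower. These shares, 42.9% and 38.1%, were near the closer background of 41.5% and 36.2%. The lower count dropped to 3 with library totals and with limma on FPKM. In this list Ppil1, a proline isomerase, rose by 0.73, Crnkl1 by 0.44 and Bud31 by 0.41 (edgeR adjusted p = 2.80e-08, 1.31e-06 and 2.17e-06). Of 25 other splicing regulators 12 rose (48%) and 7 fell (28%), among them Celf2 at -0.53, Qk at -0.44 and Rbm25 at 0.48 (edgeR adjusted p = 1.21e-07, 1.65e-07 and 2.96e-08).

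**Figure D5:**
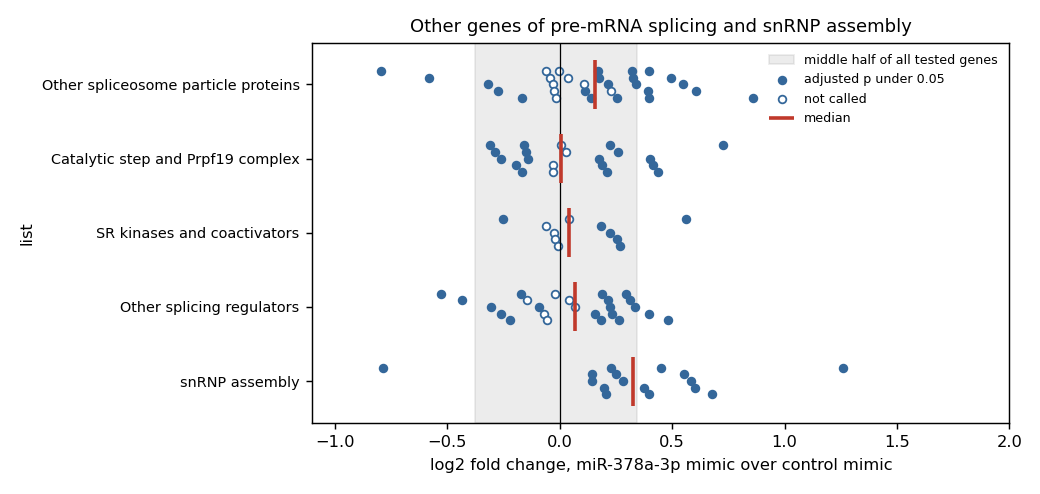
Log2 fold change, miR-378a-3p mimic over control mimic, of each tested gene in the 5 lists of other splicing genes, 1 point per gene, with filled points called by edgeR at an adjusted p under 0.05, red lines at the medians and a grey band over the middle 50% of all tested genes. The snRNP assembly genes lie to the right of 0 except Gemin8 at -0.79, with Coprs furthest out at 1.26, and the catalytic list straddles 0.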

How the data were processed

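Strand-marked libraries of poly(A) RNA were sequenced as read pairs, per the labels' protocols. The authors deposited 1 table holding, for each library, an FPKM value and an estimated count per gene. The submitters' processing notes name HISAT2 2.2.1, cutadapt 1.9, StringTie 2.1.6, edgeR and DESeq2, without their roles, and the build GRCm39, while the table's coordinates match GENCODE M21 (GRCm38) for 28095 of 28163 shared genes and are given as deposited. Use of strand in counting is not given in the sources used here, so genes overlapping on opposite strands are uncertain.

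The counts were whole numbers. All 20 value columns matched a library by name. Genes kept by filterByExpr were TMM-scaled and fitted across the table with edgeR 4.0.16 (glmQLFit, glmQLFTest, no covariate) in R 4.3.3, with Benjamini-Hochberg adjustment over all 15916 genes. FPKM, scaled by the authors, served for levels and ratios, with pseudocounts of 1 or 0.1. Alternatives were DESeq2 1.42.0, its size factors, library totals, limma 3.58.1 on log2 FPKM, other filters, counts divided by 4, a replicate block and leaving out each library. Standard errors are the size of the log2 fold change over the square root of F, and pair ratios were tested by exact permutation. Scripts were tested on simulated data.

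The members, gene lists, pairs and alternatives were chosen with earlier results of these data known. The genes named by rule are, in each role, the 2 with the highest mean FPKM and the 3 called members with the largest changes, and up to 3 called genes in each pathway list. Other members were named after their values were seen. The promoter motifs, the split by transcript class and the list counts by setting were added after seeing the data. Sites for miR-378a-3p in the members were not analysed here. The values of 1 member and of its pair stay in the counts and are not reported here.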

Additional observations from a re-analysis of the deposited data

Results flagged for a closer look

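In 5 of 126 sets of 5 libraries, 1 set per splicing factor and group, a single library lay far from the other 4 by Dixon's test. That is 3.97% of the sets, and chance flags about 1 in 20. Prpf8 had 708 CPM in miR-378a-3p mimic replicate 1, the library with keratin RNA, against 780.0 to 802 CPM in the other mimic libraries. Sf3b6 had 45.4 CPM in miR-378a-3p mimic replicate 5, against 49.4 to 50.8 CPM in the others of its group, and this library alone overlapped the control range. Hnrnpl had 346 CPM in miR-378a-3p mimic replicate 3, above the 324 to 330.0 CPM of the other mimic libraries. Hnrnpm had 297 CPM in control mimic replicate 4, below 307 to 309 CPM in the other control libraries. Prpf6 had 142 CPM in control mimic replicate 5, below 147 to 148 CPM in the rest of its group.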

How the results depend on the processing

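Of the 46 genes followed through the alternatives, 1 was called with a turned sign: Prpf19, not called by edgeR, had a log2 fold change of 0.064 with limma on log2(FPKM + 1) and 0.067 with a pseudocount of 0.1. With those 2 settings the genes called lower fell to 3258 and 3253, against 5006, with 11570 genes tested in place of 15916. Leaving out each library in turn gave 30 to 33 members higher, 14 to 17 lower, 4708 to 4950 genes higher and 4876 to 5099 lower. Every paralog ratio kept its call with a pseudocount of 0.1 and on counts. With the replicate number as a block, 32 members were higher and 15 lower, and 4879 genes were higher and 4889 lower. The block added Sf3a1 and lost Hnrnpm. The labels do not say whether same-numbered libraries were paired. Their deviations correlated at -0.01 to 0.06, and 4 of 10 libraries correlated best with their own number. Correlations this small cannot decide whether the libraries were paired. The cause of these shifts was not tested. Depth limits Snrpn, as the floor of 12 counts lay at 0.184 to 0.246 CPM, which covers counting error only. That floor equals 3 read pairs at the assumed 4 counts per read pair.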
